A study of Homo sapiens with 18 samples.

Results

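The EMT repressor transcription factors are 10 DNA-binding proteins, chosen by name for their role, that switch off epithelial genes during the epithelial-to-mesenchymal transition (EMT): ZEB1, ZEB2, SNAI1, SNAI2, SNAI3, TWIST1, TWIST2, TCF4, FOXC2 and PRRX1. They are 10 of the 61541 genes listed in the read count tables. RNA-seq had been performed on A549 cells, an established human lung adenocarcinoma line with wild-type genotype that has features of a partial EMT, grown with or without sodium propionate (SP), a short-chain fatty acid salt, at 5 mM. There were 18 libraries in 6 groups of 3. The long-exposure table held untreated cells (control, 3 days), SP for 3 days and SP for 12 days, and the short-exposure table held untreated cells (control, 24 h), SP for 3 h and SP for 24 h. SP 12 days and SP 3 h had no untreated group of their own time, so that time in culture and SP cannot be told apart in those comparisons. All groups derive from a single cancer cell line. The study describes the short-exposure samples as biological replicates, and nothing in the labels says whether any replicates were separate cultures. The p-values therefore measure the spread between these libraries only.

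During EMT an epithelial cell loses its junctions and polarity and gains motility. Many, but not all, of the factors that drive it bind E-box motifs, CACCTG and its like, in the promoters of E-cadherin (CDH1) and other junction genes. Such factors recruit corepressors that remove activating histone marks. ZEB1 and ZEB2 are zinc finger and homeodomain proteins held in check by the miR-200 microRNAs, with which they repress each other. SNAI1 (Snail), SNAI2 (Slug) and SNAI3 (Smuc) are zinc finger proteins with an N-terminal SNAG domain that docks the corepressors, and SNAI1 protein in particular is very short-lived, so that its mRNA is a poor guide to protein. TWIST1, TWIST2 and TCF4 (E2-2, an E protein, not the Wnt effector TCF7L2) are basic helix-loop-helix (bHLH) factors that work as dimers. FOXC2 is a forkhead protein and PRRX1 a homeobox protein associated with the mesenchymal state.

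Library totals ranged from 14187401 to 43765330 reads. The labelled cell line was checked with a list of 10 lung adenocarcinoma genes, whose summed level lay between 15853 and 23223 CPM in every library, CPM being a count scaled to the size of its library. KRT8, ALDH1A1 and KRT18 had the highest medians (5715, 5269 and 2999 CPM). EPCAM ran from only 5.57 to 66.4 CPM and TFF1 from 0.0598 to 1.85, so the sum says little about these. A list of 8 fibroblast genes moved with treatment, from 18.7-20.0 CPM in control (3 days) to 90.7-107 in SP 3 days and 68.1-93.0 in SP 12 days, and from 8.68-25.6 in control (24 h) to 24.3-44.6 in SP 3 h and 81.9-108 in SP 24 h. COL1A1 and THY1 made up most of it. COL1A1, THY1, COL3A1 (up to 4.21 CPM), LUM (up to 8.82 CPM) and PDGFRA (up to 1.06 CPM) had reads in all 18 libraries, whereas COL1A2, DCN and PDGFRB had 0 reads in 16, 13 and 3 of them. A list of 6 immune genes moved with treatment as well, from 17.4-18.8 CPM in control (3 days) to 34.6-38.0 in SP 3 days (13.6-26.7 in SP 12 days), and from 3.55-4.39 in control (24 h) to 14.7-16.8 in SP 24 h (2.89-4.94 in SP 3 h). CD14 had most of its reads, while CD3E and MS4A1 were at 0 in all 18 libraries and PTPRC in 14. Another 5 endothelial genes summed to 0.245-2.94 CPM. The part of these lists in the results was not tested.

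The levels below are CPM scaled by library size factors (normalised CPM). A gene is called changed at an adjusted p under 0.05 in edgeR's quasi-likelihood test over all genes of a table, and log2 fold changes are given with their standard error (SE). The filter on low counts kept 8 of the 10 factors in the long-exposure table, without FOXC2 and PRRX1, and 9 in the short-exposure table, without PRRX1.

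**Figure D1:**
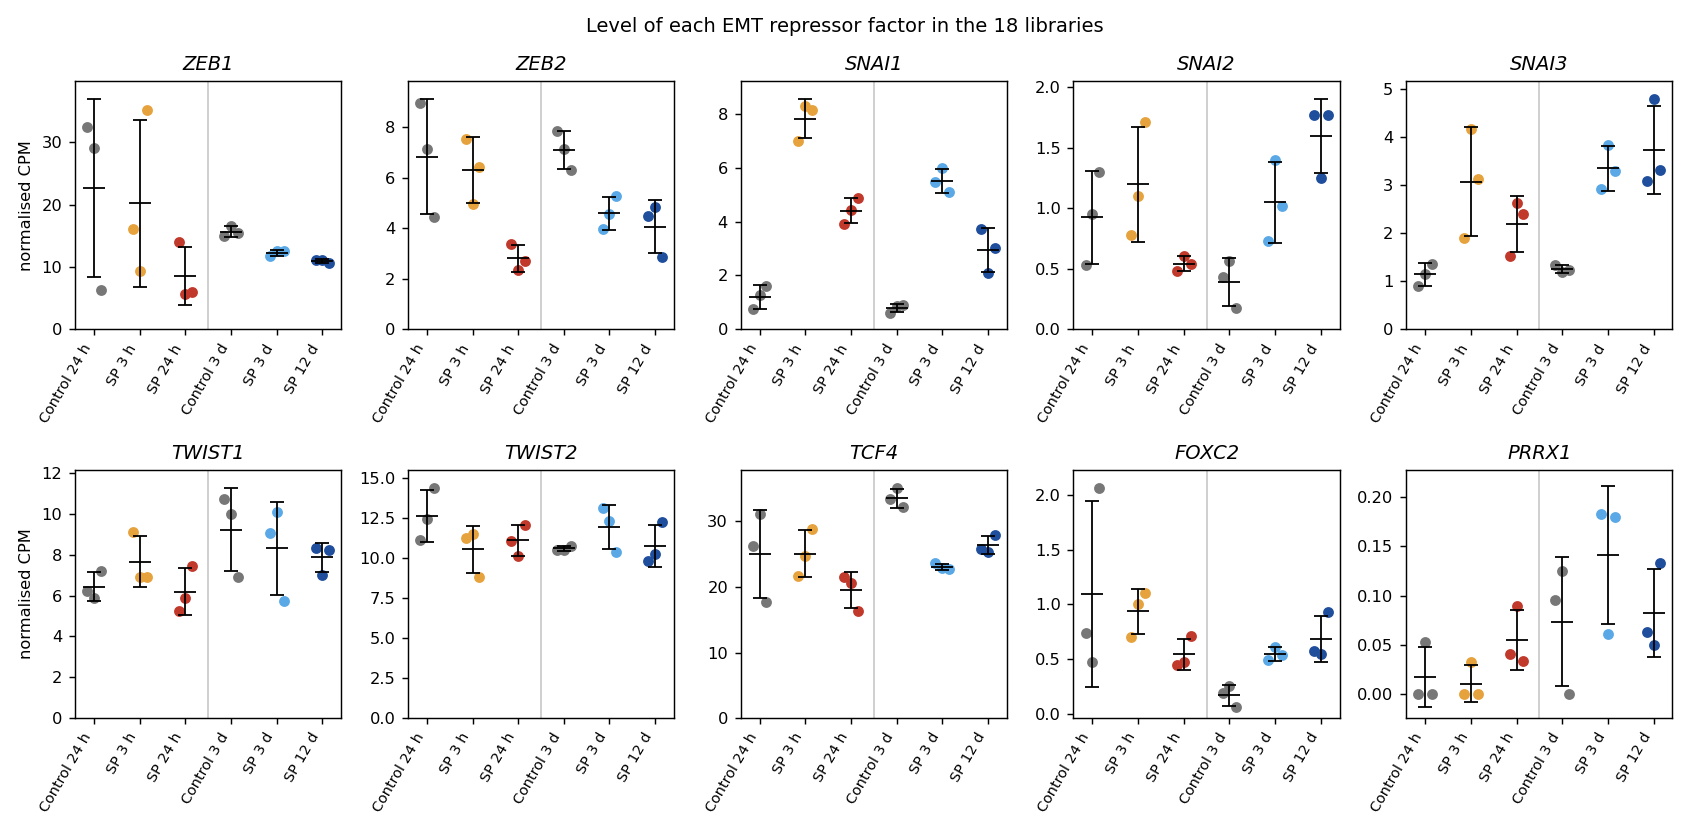
Normalised CPM (linear axis) of each of the 10 EMT repressor factors in the 18 libraries, with a point for each library and the mean and SD of each group of 3 in black, the short-exposure table to the left of the grey line and the long-exposure table to the right. SNAI1 lies higher in each SP group than in its control, ZEB2 and TCF4 lie lower after SP for 3 and 12 days, and ZEB1 spreads from 5.71 to 35.2 CPM over the 9 short-exposure libraries.

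In untreated cells the bHLH members and ZEB1 were the most abundant of the factors. Per kilobase of transcript, the level in control (3 days) was highest for TWIST2 at 7.90 ± 0.100 CPM per kb (SD, n = 3), followed by TWIST1 at 5.66 ± 1.25, TCF4 at 4.18 ± 0.180 and ZEB1 at 2.64 ± 0.141. TWIST1 and TCF4 overlapped in that order, whereas TWIST2 and ZEB1 stood apart from their neighbours in all libraries. ZEB2 at 0.767 ± 0.0820 CPM per kb and SNAI3 at 0.722 ± 0.0433 overlapped. SNAI1 followed at 0.466 ± 0.0882, apart from both neighbours. SNAI2 at 0.179 ± 0.0901, FOXC2 at 0.0576 ± 0.0338 and PRRX1 at 0.0181 ± 0.0161 closed the order, each overlapping the next.

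The order shifted under SP mainly through SNAI1 and SNAI3. In SP 3 days SNAI1 reached 3.23 ± 0.261 CPM per kb, in rank 3, above TCF4 at 2.87 ± 0.0581 and ZEB1 at 2.06 ± 0.0711 with no overlap between SNAI1 and TCF4. In SP 12 days SNAI3 at 2.15 ± 0.528, ZEB1 at 1.85 ± 0.0454 and SNAI1 at 1.73 ± 0.481 CPM per kb overlapped in a row. TWIST2 stayed first in each of the 6 groups, from 7.86 to 9.42 CPM per kb, and PRRX1 last. In control (24 h) the neighbours TWIST1 at 3.95 ± 0.430, ZEB1 at 3.82 ± 2.39 and TCF4 at 3.11 ± 0.842 overlapped in turn, as did ZEB2, SNAI1, SNAI3, SNAI2 and FOXC2.

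The first question was how the factors stood after lasting exposure to SP. After 3 days, SNAI1, SNAI2 and SNAI3 were higher and ZEB1, ZEB2 and TCF4 lower than in control, so that 6 of the 8 tested factors changed, 3 in each direction, and TWIST1 and TWIST2 did not pass the test. The background was wide, since 48.6% of all 17775 tested genes changed, 25.2% upwards and 23.3% downwards. After 12 days, 6 of 8 changed again, against a background of 49.8% of genes (26.4% upwards and 23.4% downwards), with 3 higher and 3 lower. Under the thresholds of the study's own calls, an adjusted p under 0.0001 and at least a 2-fold change, SNAI1 was called at 3 days against 8.44% of genes, and SNAI1 and SNAI3 at 12 days against 9.11%. The thresholds were applied here to the edgeR test, whereas the study applied them to DESeq2, so these are not the study's calls.

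ZEB1 (ENSG00000148516) lies on chromosome 10 at 31318495-31529814 on the plus strand (GRCh38). Its level was 14.97, 16.6 and 15.5 CPM in the 3 control (3 days) libraries, 11.8, 12.5 and 12.5 after SP for 3 days and 11.2, 11.1 and 10.7 after 12 days. All treated libraries lay below all controls, a separation, in either direction, that 61.2% of tested genes showed at 3 days and 55.9% at 12 days. The fall was 1.28-fold at 3 days (log2 -0.35 ± 0.10 SE, adjusted p = 0.00979) and log2 -0.51 ± 0.10 at 12 days (adjusted p = 0.000652). The 3-day call was lost with no count filter (adjusted p = 0.0516), and the treated times did not differ past the threshold (log2 -0.16 ± 0.10, adjusted p = 0.392).

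ZEB2 (ENSG00000169554), the close relative of ZEB1, lies on chromosome 2 at 144364364-144521057 on the minus strand. It measured 7.84, 7.14 and 6.32 CPM in control, 3.96, 4.57 and 5.26 in SP 3 days and 4.49, 4.84 and 2.88 in SP 12 days. Controls lay above both treated groups without overlap. ZEB2 fell 1.55-fold at 3 days (log2 -0.63 ± 0.19, adjusted p = 0.0128) and by 0.82 ± 0.19 on the log2 scale at 12 days (adjusted p = 0.00220). The 3-day call rested on single libraries, with an adjusted p of 0.0617 without control replicate 1 and 0.0634 without SP replicate 1.

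TCF4 (ENSG00000196628), the E protein, lies on chromosome 18 at 55222185-55664787 on the minus strand and had the most reads of the factors in this table. Its 3 control values of 33.4, 35.1 and 32.2 CPM stood against 23.6, 22.9 and 22.7 after 3 days of SP and 25.9, 25.4 and 27.9 after 12 days. The replicates were tight and the groups did not overlap. TCF4 fell 1.46-fold at 3 days (log2 -0.54 ± 0.09, adjusted p = 9.999e-05) and by 0.35 ± 0.09 on the log2 scale at 12 days (adjusted p = 0.00345).

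SNAI1 (ENSG00000124216), a chief repressor of CDH1, lies on chromosome 20 at 49982980-49988886 on the plus strand. It rose from 0.622, 0.877 and 0.887 CPM in control to 5.49, 5.97 and 5.08 after SP for 3 days, and stood at 3.73, 2.096 and 3.01 after 12 days. These values rest on 13-15 reads per control library and 42-98 per treated library. The rise was 6.98-fold at 3 days (log2 2.80 ± 0.25, adjusted p = 2.35e-07) and 3.70-fold at 12 days (log2 1.89 ± 0.26, adjusted p = 2.46e-05).

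SNAI2 (ENSG00000019549), on chromosome 8 at 48917598-48921740 on the minus strand, was scarce. Control libraries held 9, 9 and 3 reads, SP 3 days 12, 23 and 17, and SP 12 days 28, 25 and 40. In CPM this was 0.430, 0.564 and 0.177 in control, 0.732, 1.40 and 1.02 at 3 days and 1.77, 1.25 and 1.77 at 12 days, with no overlap between control and either treated group. SNAI2 rose 2.66-fold at 3 days (log2 1.41 ± 0.41, adjusted p = 0.00972, or 0.0620 without SP replicate 2) and 4.03-fold at 12 days (log2 2.01 ± 0.38, adjusted p = 0.000396).

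SNAI3 (ENSG00000185669), the least studied of the family, lies on chromosome 16 at 88677688-88686507 on the minus strand. Its control values of 1.34, 1.19 and 1.24 CPM rose to 2.93, 3.84 and 3.29 after 3 days and 3.10, 4.79 and 3.32 after 12 days of SP, without overlap. The fold was 2.65 at 3 days (log2 1.40 ± 0.24, adjusted p = 0.000143) and 2.96 at 12 days (log2 1.57 ± 0.23, adjusted p = 3.82e-05). Its antisense transcript SNAI3-AS1, which shares 177 exon bases with it, was higher as well, at 4.98 ± 0.779 CPM (SD, n = 3) in control, 7.10 ± 0.980 at 3 days (log2 0.51 ± 0.17, adjusted p = 0.0201, lost without control replicate 2 or SP replicate 2 or 3) and 10.6 ± 1.52 at 12 days (log2 1.09 ± 0.16, adjusted p = 4.44e-05). Strand was not stated for the counting, so reads in the shared bases cannot be told apart.

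The TWIST genes did not pass the test in the long-exposure table. TWIST1 (ENSG00000122691), a bHLH factor on chromosome 7 at 19020991-19117636 (minus strand), stood at 10.8, 10.0 and 6.92 CPM in control, 9.08, 10.1 and 5.74 at 3 days and 8.35, 7.04 and 8.24 at 12 days. The groups overlapped (log2 -0.16 ± 0.20, adjusted p = 0.545 at 3 days and log2 -0.24 ± 0.20, adjusted p = 0.346 at 12 days). TWIST2 (ENSG00000233608), its relative on chromosome 2 at 238848032-238910534 (plus strand), had 10.5, 10.5 and 10.8 CPM in control, 13.1, 12.3 and 10.4 at 3 days and 9.80, 10.3 and 12.3 at 12 days, again overlapping (log2 0.17 ± 0.13, adjusted p = 0.282 and log2 0.03 ± 0.13, adjusted p = 0.865).

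FOXC2 and PRRX1 were at the edge of detection. FOXC2 (ENSG00000176692), on chromosome 16 at 86566829-86569728 (plus strand), had 4, 4 and 1 reads in control, 8, 10 and 9 in SP 3 days and 9, 11 and 21 in SP 12 days. Summed over libraries and scaled, SP held 3.26 times the control reads at 3 days (95% counting interval 1.49-7.87) and 4.19 times at 12 days (2.01-9.81). The intervals cover counting error only, and the gene was below the count filter. PRRX1 (ENSG00000116132), on chromosome 1 at 170662728-170739421 (plus strand), had 4 reads in control, 7 in SP 3 days and 5 in SP 12 days, and its ratios of 1.90 (0.483-8.85) and 1.15 (0.248-5.80) had intervals that include 1.

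E-cadherin, the best known target of these factors, was higher in the same libraries in which SNAI1, SNAI2 and SNAI3 were higher and ZEB1, ZEB2 and TCF4 lower. CDH1 stood at 153, 163 and 158 CPM in control, 394, 408 and 434 after 3 days and 363, 358 and 387 after 12 days of SP. It rose 2.61-fold at 3 days (log2 1.38 ± 0.08, adjusted p = 1.45e-09) and by 1.23 ± 0.08 on the log2 scale at 12 days (adjusted p = 4.33e-09).

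**Figure D2:**
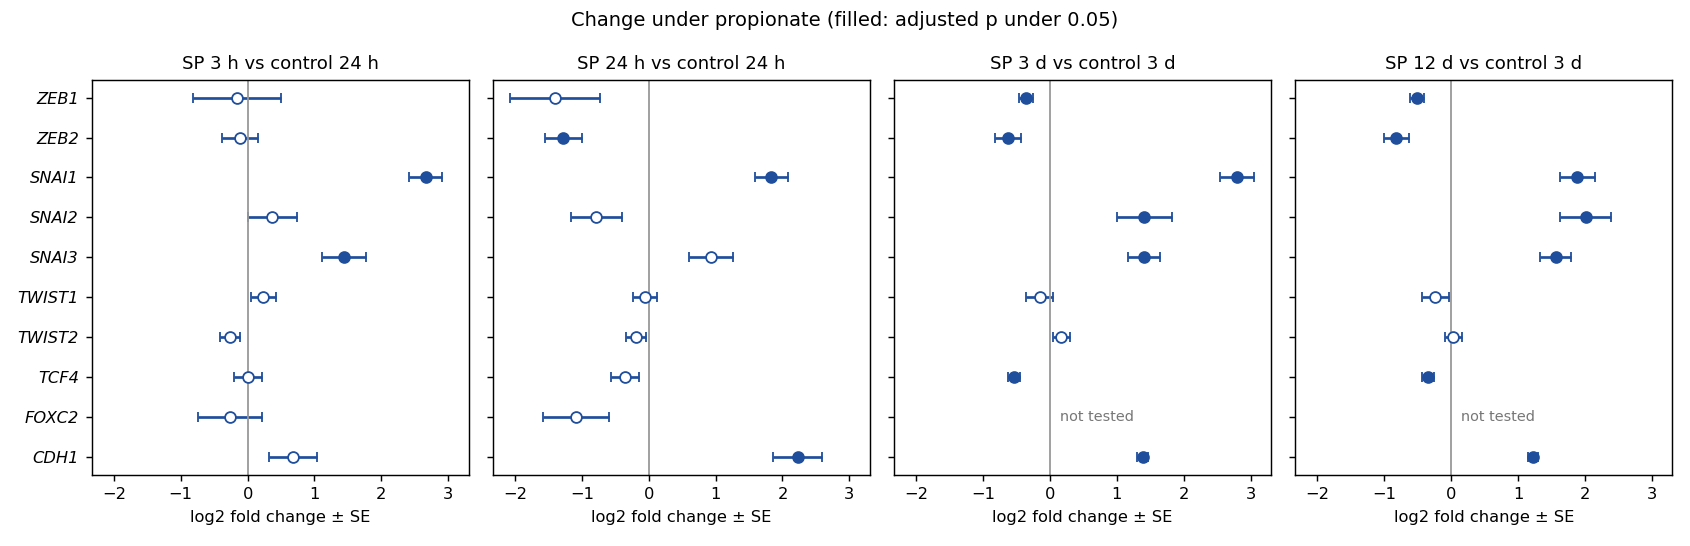
Log2 fold change with its SE (horizontal axis) of 9 EMT repressor factors and CDH1 in the 4 comparisons of SP with control, 3 libraries a group, filled where the adjusted p is under 0.05 and marked where a gene was below the count filter. SNAI1 is positive and filled in all 4 panels (1.84 to 2.80), and ZEB2 is negative and filled in all but the 3 h panel.

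The second question was how early the factors responded. After 3 h of SP, SNAI1 and SNAI3 were higher, no tested factor was called lower, and 7 of 9 did not pass, where 11.5% of the 17377 tested genes changed (7.39% upwards and 4.11% downwards). After 24 h SNAI1 was higher and ZEB2 lower, against 28.8% of genes changed (16.8% upwards and 12% downwards). With the study's stricter thresholds applied to the edgeR test and not to DESeq2 as in the study, no factor was called at either time. In that test 0% of genes were called at 3 h and 0.685% at 24 h. At 3 h, 4367 genes were at an unadjusted p under 0.05.

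SNAI1 was 0.741, 1.27 and 1.61 CPM in control (24 h), 6.98, 8.30 and 8.15 after SP for 3 h and 3.92, 4.43 and 4.86 after 24 h. All treated libraries were above all controls, and the 3 h libraries were above those of 24 h; 27.3% of genes showed such a separation from control, in either direction, at 3 h and 44.4% at 24 h. The rise was 6.34-fold at 3 h (log2 2.66 ± 0.24, adjusted p = 0.000586) and 3.57-fold at 24 h (log2 1.84 ± 0.24, adjusted p = 0.000721).

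SNAI3 stood at 0.900, 1.16 and 1.37 CPM in control, 1.90, 4.18 and 3.14 after 3 h and 1.54, 2.64 and 2.40 after 24 h, with both treated groups above control. It rose 2.71-fold at 3 h (log2 1.44 ± 0.33, adjusted p = 0.0217), a call that was lost without control replicate 1, control replicate 2 or SP 3 h replicate 2 (adjusted p between 0.070 and 0.095). At 24 h it did not pass (log2 0.93 ± 0.33, adjusted p = 0.0596), but did with the replicate number as a block (log2 0.91, adjusted p = 0.0163). SNAI2 overlapped control at both times, with 0.529, 0.951 and 1.30 CPM in control, 0.776, 1.10 and 1.71 at 3 h and 0.486, 0.604 and 0.540 at 24 h (log2 0.37 ± 0.37, adjusted p = 0.605 and log2 -0.78 ± 0.38, adjusted p = 0.153).

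ZEB2 read 8.95, 7.13 and 4.45 CPM in control, 7.55, 4.96 and 6.44 after 3 h and 3.40, 2.35 and 2.702 after 24 h. The 3 h libraries overlapped control (log2 -0.12 ± 0.27, adjusted p = 0.843), and the 24 h libraries lay below all others. ZEB2 fell 2.43-fold at 24 h (log2 -1.28 ± 0.28, adjusted p = 0.00820).

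ZEB1 was uneven in this table. It measured 32.5, 29.1 and 6.38 CPM in control (24 h), 16.2, 9.31 and 35.2 after 3 h and 14, 5.71 and 6.01 after 24 h. Control replicate 3 was as low as the 24 h treated libraries, and the groups overlapped, although each 24 h library lay below the control of its own number. The log2 change was -0.16 ± 0.65 at 3 h (adjusted p = 0.921) and -1.41 ± 0.67 at 24 h (adjusted p = 0.147), and at 24 h it was -1.86 (adjusted p = 0.0305) without control replicate 3. TCF4 showed 26.2, 31.1 and 17.7 CPM in control, 21.7, 24.7 and 28.9 at 3 h and 21.6, 20.6 and 16.4 at 24 h, where control replicate 3 was again the low one and the 24 h library was the lower of each same-numbered pair. Its log2 change was 0.01 at 3 h (adjusted p = 0.989) and -0.36 ± 0.21 at 24 h (adjusted p = 0.226), the latter -0.56 (adjusted p = 0.0309) without that control. With the replicate number as a block neither gene passed at 24 h (ZEB1 log2 -1.47, adjusted p = 0.184, and TCF4 log2 -0.34, adjusted p = 0.266).

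These libraries also differed in base composition. Genes were ranked by GC content and split into 5 equal groups, and the median log2 deviation of the lowest group minus that of the highest was taken in each library. It was 0.802, 0.433 and -0.385 in control (24 h), 0.037, -0.172 and 0.543 in SP 3 h and -0.116, -0.490 and -0.610 in SP 24 h. The long-exposure libraries differed less, at 0.138, 0.327 and -0.0985 in control (3 days), -0.0881, -0.176 and -0.256 in SP 3 days and 0.111, 0.0789 and -0.0838 in SP 12 days. ZEB1, ZEB2 and TCF4 have transcripts of 38.9%, 39.0% and 39.2% GC, with 10.8%, 10.9% and 11.8% of tested genes lower, whereas SNAI1 (58.4%) and SNAI3 (65.3%) lie in the upper part. With GC content and length corrected in the fit, ZEB2 still fell at 24 h (log2 -1.13, adjusted p = 0.000786) and SNAI1 rose (log2 1.47, adjusted p = 0.000252), ZEB1 was at log2 -1.16 (adjusted p = 0.134), and SNAI3 moved to log2 0.29 (adjusted p = 0.458). Corrected ZEB1 levels still ran from 8.45 to 27.2 CPM in control and from 6.34 to 13.2 in SP 24 h. In the long-exposure table corrected SNAI3 was 1.58, 1.49 and 1.41 CPM in control (3 days) and 2.59, 3.28 and 2.93 in SP 3 days.

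**Figure D3:**
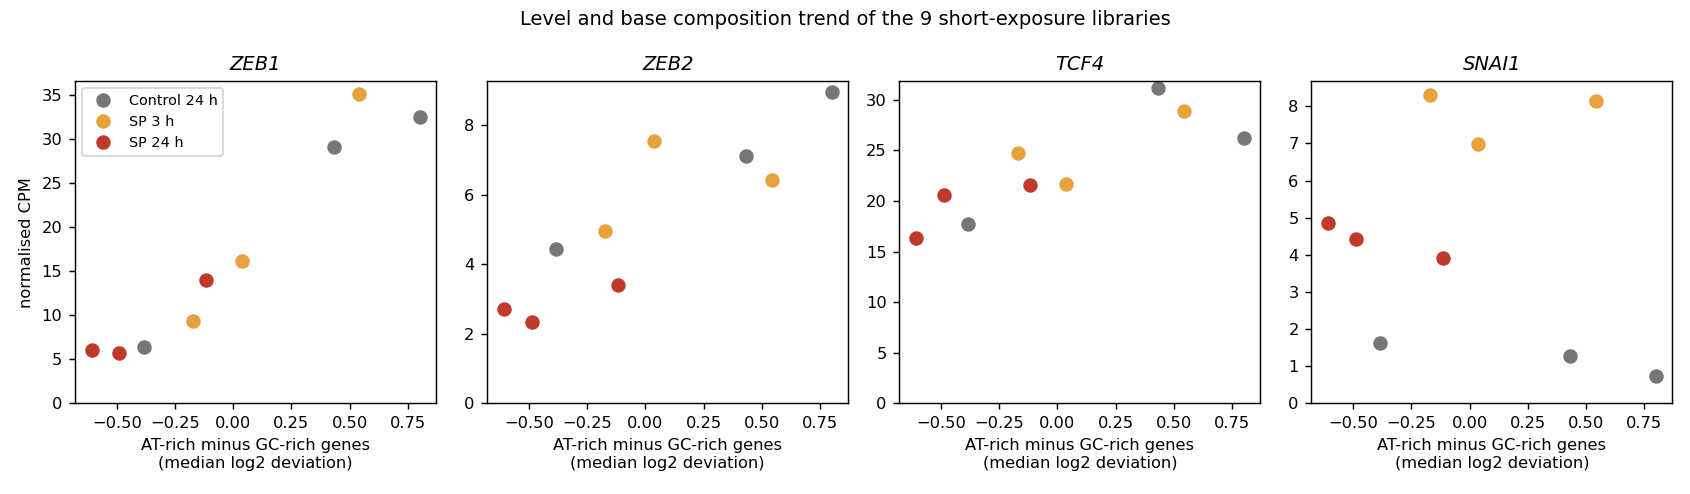
Normalised CPM of ZEB1, ZEB2, TCF4 and SNAI1 (vertical) against the base composition trend of each library (median log2 deviation of the lowest of 5 GC groups of genes minus the highest, horizontal) in the 9 short-exposure libraries, coloured by group. The 3 libraries with the largest trend (0.433 to 0.802) hold the 3 highest ZEB1 levels (29.1 to 35.2 CPM), and SNAI1 separates by group. The groups share little of the trend range. SP 24 h libraries lie from -0.610 to -0.116, where control replicate 3 (-0.385) is the only control.

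TWIST1, TWIST2 and FOXC2 overlapped control at both short times and did not pass the test, and PRRX1 had 0 to 4 reads per library. TWIST1 had 6.25, 5.86 and 7.22 CPM in control, 9.10, 6.94 and 6.93 at 3 h and 5.26, 5.86 and 7.46 at 24 h (adjusted p = 0.484 and 0.822). TWIST2 had 11.1, 12.4 and 14.4 CPM in control, 11.3, 11.5 and 8.84 at 3 h and 11.1, 10.2 and 12.1 at 24 h (adjusted p = 0.340 and 0.374). FOXC2 was at 0.741, 0.476 and 2.07 CPM in control, control replicate 3 standing highest of the 9, against 0.705, 1.01 and 1.10 at 3 h and 0.445, 0.470 and 0.709 at 24 h (log2 -0.26 ± 0.48, adjusted p = 0.801 and log2 -1.09 ± 0.49, adjusted p = 0.128). With the GC content and length correction both TWIST2 (log2 -0.50, adjusted p = 0.00647) and FOXC2 (log2 -1.70, adjusted p = 0.00821) were called lower at 24 h. FOXC2 was also called without control replicate 2 (log2 -1.43, adjusted p = 0.0477) and stood at log2 -0.18 without control replicate 3. CDH1 stood at 19.4, 46.5 and 38.1 CPM in control, 48.7, 82.3 and 34.8 at 3 h (log2 0.67 ± 0.36, adjusted p = 0.289) and 149, 183 and 155 at 24 h (log2 2.23 ± 0.37, adjusted p = 0.00265).

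The treated groups of one table were then compared directly. SNAI1 was lower at 12 than at 3 days (log2 -0.92 ± 0.21, adjusted p = 0.0123) and lower at 24 h than at 3 h (log2 -0.83 ± 0.22, adjusted p = 0.0254). The latter call was lost without SP 3 h replicate 2 or 3 or any of the SP 24 h libraries (adjusted p between 0.0619 and 0.0866). It was the 1 factor of 8 that changed between 3 and 12 days, where 8.1% of genes did, and this call was lost without SP 3 days replicate 2 (adjusted p = 0.0692). ZEB2 was lower at 24 h than at 3 h (log2 -1.16 ± 0.28, adjusted p = 0.0180), so that 2 of 9 factors changed there, where 20.1% of genes did. The ZEB2 call was lost without SP 3 h replicate 1 or 3 or SP 24 h replicate 2 or 3 (adjusted p between 0.0526 and 0.0782), and no factor was called without SP 3 h replicate 3 or SP 24 h replicate 2 or 3. SNAI2 was at log2 -1.15 ± 0.37 (adjusted p = 0.0564) between 24 h and 3 h.

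ZEB1 and ZEB2 carry the features by which the miR-200 family recognises them, shown here because these 2 genes are the members with the most such sites. The mature microRNAs, from RefSeq (GRCh38.p14) with seed bases 2 to 8 in capitals, fall into 2 seed groups. The first group has the seed AAUACUG:
hsa-miR-200b-3p: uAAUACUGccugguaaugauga
hsa-miR-200c-3p: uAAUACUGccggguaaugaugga
hsa-miR-429: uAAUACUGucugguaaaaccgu
The second group, with the seed AACACUG, differs at one seed base:
hsa-miR-200a-3p: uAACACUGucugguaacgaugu
hsa-miR-141-3p: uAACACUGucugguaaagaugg

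The complements of these seeds, CAGTATT and CAGTGTT, were searched on the sense strand of the 3′ untranslated region of each factor's canonical transcript. ZEB1 held 9 in 2540 bases and ZEB2 9 in 5370 bases, and 0.042% of the 19206 genes examined had at least that many. TCF4 held 3 in 5850 bases (3.79% of genes have at least that many), SNAI2 held 1, and the other 6 factors held 0, as against at least 1 in 28.3% of genes and a median region of 1064 bases. Both motifs occur in both genes, here with the match in capitals, written 5′ to 3′ on the gene's strand:
ZEB1, chr10:31527713-31527734 (+): tgctaaatccgcttCAGTATTt
ZEB1, chr10:31528032-31528053 (+): aaaatcatcagaatCAGTGTTt
ZEB2, chr2:144388989-144389010 (-): gcactacaatgcatCAGTATTa
ZEB2, chr2:144389236-144389257 (-): gcaaaaattttgtaCAGTGTTa
A match is a description of sequence and not evidence of binding. Mature microRNAs were not measured by these libraries, and MIR200CHG, the host transcript of miR-200c and miR-141, had 2 reads in all 18 libraries. ZEB1-AS1, which shares 396 exon bases with ZEB1, was at 3.45 ± 0.478 CPM in control (3 days), 3.98 ± 0.0265 at 3 days of SP and 3.30 ± 0.617 at 12 days.

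The genes around the factors were described with lists of pathway members, whose counts are to be read against the 48.6%, 49.8%, 11.5% and 28.8% of all tested genes that changed at 3 days, 12 days, 3 h and 24 h. One list held 24 epithelial genes named as targets of EMT repressors, and their silencing by the factors was not tested. At 3 days 23 of them passed the count filter, with 13 higher and 2 lower (median log2 0.58, against -0.02 for all genes). At 12 days 17 were higher and 1 lower (median 0.65). At 3 h 4 were higher and 1 lower of 21, and at 24 h 13 were higher and 1 lower (median 1.26). ESRP1, a splicing regulator of epithelial cells, rose from 0.217 ± 0.0604 CPM in control to 3.21 ± 0.404 at 3 days and 12.9 ± 2.61 at 12 days (log2 3.81 ± 0.32 and 5.82 ± 0.27). The tight junction genes CLDN4 (log2 2.44 ± 0.17) and CGN (log2 2.33 ± 0.12) came next at 3 days. At 24 h CLDN7 (log2 4.01 ± 0.44), CLDN4 (log2 2.82 ± 0.22) and CGN (log2 2.61 ± 0.24) had the largest changes among those with enough reads to be named.

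Mesenchymal effector genes were higher as well in the long-exposure table, 12 higher and 1 lower of 18 at 3 days (median log2 0.77) and 13 higher and 2 lower at 12 days (median 0.63). SPARC and COL1A1, matrix proteins of mesenchymal cells, rose by log2 2.33 ± 0.17 and 2.22 ± 0.19 at 3 days, and NNMT, a metabolic enzyme of mesenchymal cells, fell by 2.001 ± 0.15 on the log2 scale. COL1A1 is also on the fibroblast list above.

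Of the corepressors and chromatin partners with which the SNAI and ZEB proteins act, 5 were higher and 11 lower of 23 at 3 days (median log2 -0.22) and 5 higher and 12 lower at 12 days (median -0.24). SUV39H1, a histone H3K9 methyltransferase, fell after every duration of SP, by 1.39 ± 0.17 (3 h), 0.70 ± 0.16 (24 h), 1.26 ± 0.17 (3 days) and 1.24 ± 0.17 (12 days) on the log2 scale, the 24 h call being lost without SP 24 h replicate 2 or 3. AJUBA, a SNAG domain adaptor, fell by 1.05 ± 0.10 and LOXL2, a partner of SNAI1, rose by 1.09 ± 0.14 at 3 days. The list of dimer partners of TWIST and TCF4 also holds the ID inhibitors of such dimers. Of 8 tested, 4 were higher and 3 lower at 3 days (4 in all without SP 3 days replicate 2). At 12 days 2 were higher and 2 lower. ID1, one of the inhibitors, fell by 0.54 ± 0.08 on the log2 scale at 3 days. Of 24 other EMT-associated factors, 9 were higher and 4 lower at 3 days and 13 higher and 4 lower at 12 days, the 13 changed genes at 3 days being close to the share over all genes, with PRRX2, the relative of PRRX1, at log2 2.84 ± 0.17 and 2.69 ± 0.17. Among 11 epithelial factors that oppose EMT, 2 were higher and 8 lower at 3 days, with GRHL1 higher (log2 2.26 ± 0.24) and FOXA1 lower (log2 -0.90 ± 0.11), and 4 were called higher and 5 lower at 12 days. At 24 h the list held 5 higher (OVOL2, GRHL1, GRHL3, ELF3 and KLF5, listed here after their values were seen) and 1 lower, 6 genes that became 3 without control replicate 1 or SP 24 h replicate 3 and 2 without SP 24 h replicate 2, and at 3 h 3 were higher and 3 lower.

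Regulators of the factors' protein stability were 1 higher and 6 lower of 20 at 3 days and 5 higher and 4 lower at 12 days, in both cases a smaller share than among all genes. The 7 at 3 days became 4 without control replicate 1 or SP replicate 3, and the 9 at 12 days became 5 without control replicate 1 or 2 and 4 without SP replicate 1. FBXL14, an F-box protein that targets SNAI1 and TWIST1 for degradation, fell by 0.46 ± 0.09 at 3 days, 0.43 ± 0.09 at 12 days and 0.62 ± 0.13 at 24 h on the log2 scale. Genes of pathways such as TGF-beta, Notch, hypoxia and NF-kB, called inducers here, were 9 higher and 3 lower of 19 at both long times. BMP7 (log2 2.77 ± 0.24) and TGFB2 (log2 1.33 ± 0.11) were higher at 3 days. The list was not split into genes that promote and genes that oppose EMT, so its counts give no direction of signalling. TGFB2 was lower at 3 h (log2 -0.64 ± 0.11, adjusted p = 0.00496). The antisense and microRNA host list held 2 higher and 2 lower of 6 tested at 3 days, and 2 higher at 12 days (1 with only the groups compared in the fit). At 24 h H19, the host of a microRNA, rose from 0.399 ± 0.0671 to 25.8 ± 2.45 CPM (log2 6.01 ± 0.19, adjusted p = 7.69e-07). At 3 h and 24 h respectively, higher and lower genes numbered 1 and 1, then 5 and 3 among the mesenchymal effectors, 0 and 3, then 1 and 5 among the corepressors, 1 and 0, then 2 and 0 among the dimer partners, 4 and 2, then 5 and 4 among the other EMT-associated factors, 0 and 3, then 1 and 4 among the stability regulators, 0 and 3, then 3 and 4 among the inducers, and 0 and 1, then 2 and 0 in the antisense and host list. In the short-exposure table all lists but the epithelial targets had counts that moved by over 1.5 times with a library left out, for instance the corepressors at 24 h from 6 to 11 and the inducers from 7 to 11 without control replicate 3, or the corepressors to 3 without SP 24 h replicate 2.

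**Figure D4:**
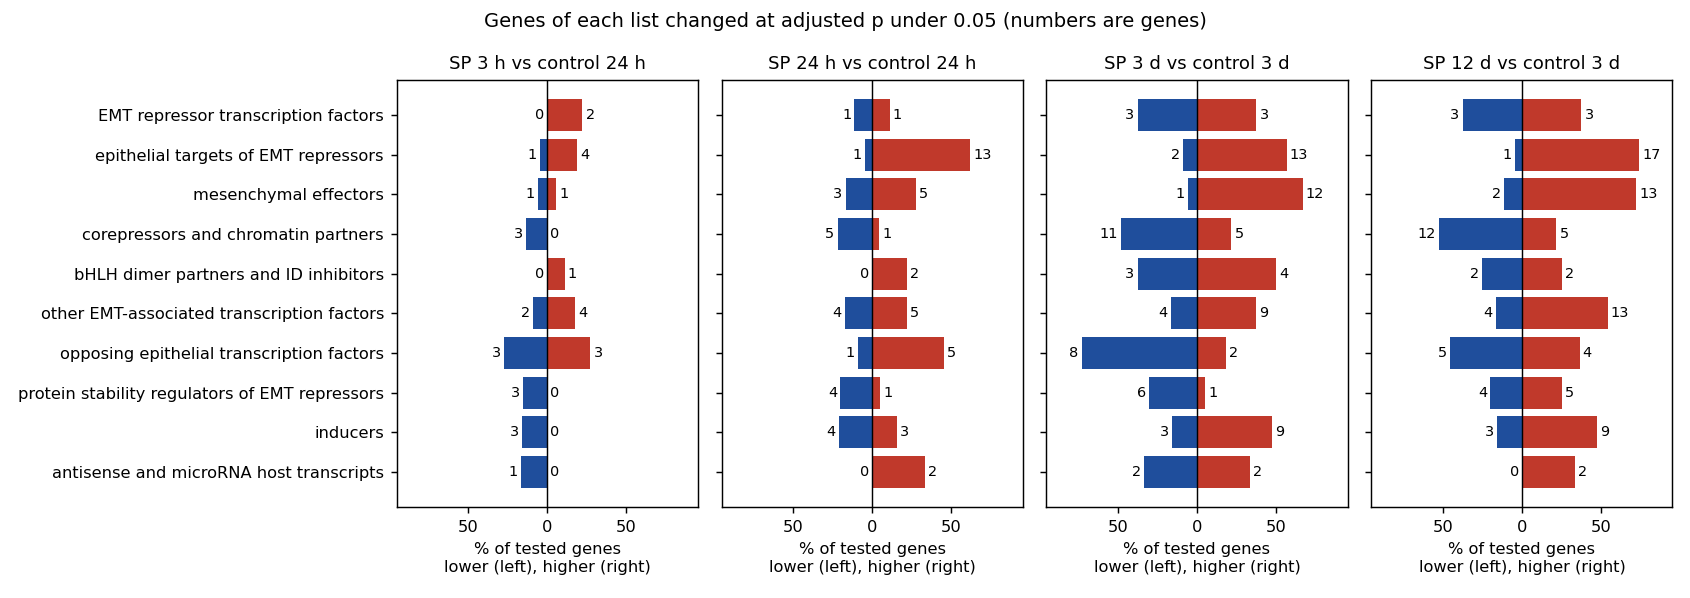
Percent of the tested genes of each list that were higher (red, right) or lower (blue, left) at an adjusted p under 0.05 in the 4 comparisons with control, with the number of genes beside each bar. Epithelial targets have 13 of 23, 17 of 23, 4 of 21 and 13 of 21 higher after SP for 3 days, 12 days, 3 h and 24 h. The EMT repressor factors have 3 of 8, 3 of 8, 2 of 9 and 1 of 9. Of all tested genes, 25.2%, 26.4%, 7.39% and 16.8% were higher.

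Across libraries, the genes most like each factor were taken by the smaller of the 2 Pearson correlations of log2 CPM over the 9 libraries of each table, among 16653 genes, for the 7 factors with enough reads. The points share their libraries, depth and treatment groups, so these are descriptions. ZEB1 ran with RALGAPA1 (r = 0.970 and 0.962), TOM1L1 and TFPI, whose transcripts have 34.7% to 41.1% GC. ZEB2 ran with SPC25 (0.951 and 0.951), LAP3 and DEPDC1B, and TCF4 with POC1B (0.974 and 0.967), PPP1R9A and ANKRD50. SNAI1 ran with CHKA (0.973 and 0.970), DACT3 and HABP4, and SNAI3 with ARVCF (0.955 and 0.954), MAP1LC3B and TMEM92. The closest to TWIST1 was GPS2 (0.933 and 0.841) and to TWIST2 FOXQ1 (0.893 and 0.774).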

How the data were processed

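RNA-seq of A549 cells with and without SP gave 2 deposited tables of raw read counts per Ensembl gene, which the authors made from NEBNext Ultra libraries with STAR 2.7.9a on GRCh38 (annotation release 105) and featureCounts. Strandedness and the handling of multi-mapping reads are not given in the sources used here. Each table was fitted on its own, with its 9 libraries, in edgeR 4.0.16 (R 4.3.3): filterByExpr (minimum count 10), TMM factors (0.957 to 1.037) and the robust quasi-likelihood test, with Benjamini-Hochberg adjustment over all tested genes. Low counts are given as ratios of summed reads with 95% counting intervals. Alternatives were DESeq2 1.42.0, RLE factors, no filter, the replicate number as a block, only the groups compared, each library left out and, chosen after seeing the data, a GC content and length correction. Deviations of same-numbered control (24 h) and SP 24 h libraries correlated by 0.50, 0.17 and 0.50. Libraries of unlike number reached 0.58 (control (24 h) replicate 1 with SP 3 h replicate 3) and 0.17 (control (24 h) replicate 3 with SP 24 h replicate 2). The other unlike-numbered control (24 h) and SP 24 h libraries ranged from -0.55 to 0.16. The check therefore cannot show whether the numbers pair libraries, and the labels give no source for a pairing. The test was checked on simulated data. Positions are from GENCODE 44.

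All 10 factors are named. Up to 3 genes per list and comparison could be named, by the largest log2 fold change among changed genes whose mean in the treated or control libraries reached 50 reads, with CDH1 always. The report gives examples from the genes so named, and 1 item is not reported here. The members and lists were chosen with earlier results of these data known. Genes that share exon bases with an antisense gene (396 for ZEB1, 1299 for ZEB2, 121 for SNAI2, 177 for SNAI3, 141 for TWIST1, 260 for TCF4 and 231 for FOXC2) and pseudogene copies (of SNAI1 and ZEB2) may share reads.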

Additional observations from a re-analysis of the deposited data

Results flagged for a closer look

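Levels differed between the 2 treated times of a table, tested in the same fit, for the genes below, given on the log2 scale. SP 12 days and SP 3 h have no untreated group of their own time, so the effect of SP and time in culture cannot be told apart in these differences. Among the factors, SNAI1 was lower at 12 than at 3 days (-0.92) and at 24 h than at 3 h (-0.83), and ZEB2 was lower at 24 h than at 3 h (-1.16).

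Of the 36 genes named from the lists for their change against control, 12 differed between 12 and 3 days, where 8.1% of all genes did. Higher at 12 days were ESRP1 (2.01), EPCAM (1.09), BMP7 (1.082), MDM2 (1.04), TNC (1.01), SNAI3-AS1 (0.58), MIR34AHG (0.51), NEAT1 (0.49), TGFB2 (0.47) and AJUBA (0.35). Lower were COL1A1 (-0.74) and ID2 (-0.47).

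Between 24 h and 3 h, 20 of 36 such genes differed, where 20.1% of all genes did. Both sets were picked for a large change in one of the treated groups compared. Higher at 24 h were H19 (6.10), CLDN7 (3.32), SPARC (2.22), BMP7 (1.69), EHF (1.61), CDH1 (1.55), COL1A1 (1.498), PRRX2 (1.35), CLDN4 (1.24), BMP4 (0.99), TGFB2 (0.91), MIR34AHG (0.88), ITGA5 (0.78), CGN (0.73), SUV39H1 (0.69) and MSX2 (0.58). Lower were NNMT (-0.96), GRHL1 (-0.87), PKP2 (-0.69) and FBXL14 (-0.48). Groups of 3 libraries are too small for the test of single outlying libraries, which was not run.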

How the results depend on the processing

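Of 816 recomputed values of the factors, 747 kept their direction and their side of the threshold, 18 lost a call, 24 gained one and 27 turned direction, and 0 of the last were of factors called at first. The count of changed factors was 6 at 3 days (5 to 7 with a library left out), 6 at 12 days (6 to 7), 2 at 3 h (1 to 2), 2 at 24 h (2 to 4), 1 between 12 and 3 days (0 to 1) and 2 between 24 h and 3 h (0 to 3). Under the stricter thresholds it was 1, 2, 0, 0, 0 and 0. Fitting only the groups compared gave 1 at 3 h. With GC content and length corrected it was 4 at 24 h and 4 between 24 h and 3 h, and with the replicate block added 4 and 5. With the replicate block alone the counts were 6, 6, 2, 3, 1 and 3. The block called SNAI3 at 24 h, as given above, and SNAI2 between 24 h and 3 h (adjusted p = 0.0353), and changed no other call of a factor. The same-numbered libraries of control (24 h) and SP 3 h correlated by -0.09, -0.03 and -0.59, and those of the long-exposure groups by -0.01 to 0.16. The check gave no sign of pairing there, but it cannot settle the question. The GC correction shifted the median of all genes by -0.12, -0.10, -0.06 and -0.13 at 3 days, 12 days, 3 h and 24 h. With no count filter, ZEB1 at 3 days had an adjusted p of 0.0516, and SNAI3 at 24 h one of 0.0197. Of 1648 values of the listed genes, 119 lost a call.

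With a library left out, values that turned direction ranged from -0.3305 to 0.047 for TWIST1 at 3 days, -0.0936 to 0.068 for TWIST2 at 12 days, -0.842 to 0.1919 for ZEB1, -0.3645 to 0.1042 for ZEB2, -0.1905 to 0.1921 for TCF4 and -0.5999 to 0.6524 for FOXC2 at 3 h, -0.2116 to 0.0361 for TWIST1 at 24 h, -0.3585 to 0.011 for ZEB2, -0.0678 to 0.2579 for SNAI3 and -0.3017 to 0.0756 for TWIST1 between 12 and 3 days, and -0.0438 to 0.1434 for TWIST2 between 24 h and 3 h. TCF4 at 3 h also turned with RLE factors (-0.0133), DESeq2 (-0.0129), only the groups compared (-0.0004) and the GC correction (-0.0536, with the block -0.0578). The GC correction without and with the block turned TWIST2 at 12 days (-0.0266 and -0.0221), TWIST1 between 12 and 3 days (0.0108 and 0.0549), TWIST2 between 24 h and 3 h (-0.1456 and -0.1471) and the listed TCF3 at 12 days (-0.0524 and -0.0564). The cause of these changes was not tested. The depth limits FOXC2, PRRX1 and SNAI2, whose libraries hold 0 to 59 reads.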
